A study of Mus musculus with 9 samples.

Results

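The genes described here make, regulate, carry and break down cholesterol. They were chosen by gene symbol as 36 genes: 18 enzymes of cholesterol synthesis, 7 regulators of the pathway, and 11 genes of cholesterol transport and turnover. The array annotation named 31 of the 36, among 19505 genes in all: 16 enzymes, 5 regulators and 10 transport and turnover genes. Each of the 31 had 1 probe set. Acat2, Tm7sf2, Srebf1, Nr1h2 and Soat1 were not analysed here. The members were chosen by their known roles and not by their values, although earlier results from these arrays were known when they were chosen.

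The study set 3 groups of male mice against each other, with 3 Clariom S arrays per group hybridized with brain RNA. In the VE group, leptin-deficient obese mice (C57BL/6JHamSlc-ob/ob) were given an extract of the legume Vigna umbellata (VE) at 100 mg/kg of body weight by gavage for 42 days. In the ob/ob vehicle group, mice of the same strain and genotype received vehicle for the same 42 days. In the wild-type group, C57BL/6JHamSlc-+/+ mice received vehicle for 42 days. All 3 groups arrived at 6 weeks of age, had 1 week of acclimatization and ate standard chow. A VE group without the ob/ob genotype was not analysed here, so every effect of VE below is an effect within ob/ob mice, and the ob/ob vehicle arrays serve in both main comparisons. The labels give the tissue as brain, with no region, while the design text of the series names WAT and a further dose of 50 mg/kg that was not analysed here. The 13 measured neuron markers had a mean log2 signal of 12.21 to 13.78 on the 9 arrays, against array medians of 7.01 to 7.23 over all probe sets.

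The brain makes nearly all of its own cholesterol, because lipoproteins of the blood do not cross the blood-brain barrier. Oligodendrocytes use much of it for myelin, and astrocytes pass it to other cells on particles built around apolipoprotein E. Synthesis is set by the transcription factor SREBP-2 (Srebf2). When sterols in the endoplasmic reticulum are low, SCAP carries SREBP-2 to the Golgi apparatus, where it is cleaved and released to switch on the synthesis genes. When sterols are high, the INSIG proteins hold SCAP back. The liver X receptors, bound by oxidized sterols, switch on export genes such as Abca1 and Abcg1, and the neuronal enzyme CYP46A1 hydroxylates cholesterol so that it can leave the brain.

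The promoters of the synthesis genes are known for SREBP-2 sites that work together with neighbouring CCAAT boxes, bound by NF-Y, and GC boxes, bound by Sp1. Windows of 250 bases before the annotated start were available from RefSeq (GRCm38.p6) for 24 of the 31 members, and for 13 of the 16 enzymes. Letters were searched on both strands, each motif apart from the others and with overlaps between motifs allowed. CCAAT was in at least 1 listed window of 13 of 13 enzymes, against 37.5% of all genes. By window, it was in 81.2% of the 16 windows of the enzymes and in 33.8% of all 32851 windows. GGGCGG was in 81.2% of the enzyme windows and in 32.7% of all windows. TCACNCCAC, a strict spelling of the sterol regulatory element, was in 6.25% of the enzyme windows and in 1.05% of all windows. The only enzyme with it was Hmgcs1, the gene of the synthase that makes the substrate of the rate-limiting reductase, where it began 137 bases before the start. Such matches describe letters and do not show that a factor is bound.
The promoters below belong to the 6 enzymes with the smallest p for any difference among the groups and to Pltp, which was added after its values were seen because it was the only member called. Capitals mark CCAAT, or its reverse ATTGG, and the sterol regulatory element. Each is written 5′ to 3′ on the strand of its gene, ends at the base before the start, and was taken from the first window listed for the gene. Hsd17b7 is given only for the bases outside its annotated span.
Ebp, chrX:8193513-8193762, minus strand: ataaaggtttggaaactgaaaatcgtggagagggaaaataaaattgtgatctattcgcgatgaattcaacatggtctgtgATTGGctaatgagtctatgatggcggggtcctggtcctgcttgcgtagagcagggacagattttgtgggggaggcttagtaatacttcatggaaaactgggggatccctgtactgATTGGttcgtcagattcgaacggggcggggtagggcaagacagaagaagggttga
Dhcr7, chr7:143822917-143823166, plus strand: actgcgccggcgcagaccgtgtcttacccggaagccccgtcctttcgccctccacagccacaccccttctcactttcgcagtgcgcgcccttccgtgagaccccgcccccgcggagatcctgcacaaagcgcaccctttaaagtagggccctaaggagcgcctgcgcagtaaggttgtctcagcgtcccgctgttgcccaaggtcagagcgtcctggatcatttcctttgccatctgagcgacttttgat
Pmvk, chr3:89454291-89454540, plus strand: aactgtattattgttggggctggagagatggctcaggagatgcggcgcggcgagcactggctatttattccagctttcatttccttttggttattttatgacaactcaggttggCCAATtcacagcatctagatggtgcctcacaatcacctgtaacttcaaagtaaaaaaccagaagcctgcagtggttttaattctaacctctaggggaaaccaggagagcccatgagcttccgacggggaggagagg
Hsd17b7, chr1:169969243-169969455, minus strand: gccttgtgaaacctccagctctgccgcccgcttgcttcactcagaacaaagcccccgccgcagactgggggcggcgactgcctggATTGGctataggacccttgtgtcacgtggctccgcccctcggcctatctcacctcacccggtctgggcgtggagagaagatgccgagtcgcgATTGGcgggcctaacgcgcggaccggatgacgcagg
Cyp51, chr5:4104698-4104947, minus strand: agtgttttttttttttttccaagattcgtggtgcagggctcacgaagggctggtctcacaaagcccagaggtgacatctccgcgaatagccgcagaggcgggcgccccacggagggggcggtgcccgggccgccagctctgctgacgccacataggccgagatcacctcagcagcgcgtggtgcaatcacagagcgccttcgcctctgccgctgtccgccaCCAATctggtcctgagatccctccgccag
Hmgcs1, chr13:119690101-119690350, plus strand: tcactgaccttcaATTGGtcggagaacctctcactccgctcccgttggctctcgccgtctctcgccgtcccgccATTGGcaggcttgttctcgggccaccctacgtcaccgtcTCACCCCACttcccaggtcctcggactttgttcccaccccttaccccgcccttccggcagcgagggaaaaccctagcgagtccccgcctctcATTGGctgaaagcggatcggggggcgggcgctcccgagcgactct
Pltp, chr2:164857709-164857958, minus strand: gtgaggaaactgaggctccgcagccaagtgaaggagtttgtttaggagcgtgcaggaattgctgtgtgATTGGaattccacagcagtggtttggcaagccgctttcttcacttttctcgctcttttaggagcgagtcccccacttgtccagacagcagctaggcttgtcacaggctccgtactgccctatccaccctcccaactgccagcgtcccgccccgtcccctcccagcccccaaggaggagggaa
Hmgcs1 carries 3 CCAAT letters in this window, Ebp and Hsd17b7 carry 2 each in what is printed, and Pmvk, Cyp51 and Pltp carry 1 each. The Dhcr7 window shown has none, while another of the 3 windows listed for Dhcr7 has 2.

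Before the results, VE array 2 must be set apart. It correlated with the other 8 arrays at 0.962 to 0.970 over all probe sets, while those 8 correlated with each other at 0.979 to 0.993. Its highest log2 signal was 16.37, against 19.01 to 19.93 on the others. It was the lowest of the 9 arrays for 15 of the 31 members (48.4%) and for 37.4% of all probe sets. Most of the VE differences that follow are therefore also given without this array. In what follows a level is a log2 signal, a difference is a difference of mean log2 signals, and a gene is called where the limma adjusted p (Benjamini-Hochberg over 22206 probe sets) is under 0.05.

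In ob/ob vehicle brain most cholesterol genes read lower than in wild-type brain, and 1 of them passed the test. That gene was Pltp, the phospholipid transfer protein that remodels lipoproteins, which fell by 1.64 (3.12-fold). Across all probe sets 1.27% were called in this comparison, and 0.73% were called as lower. The difference was below zero for 28 of the 31 members, against 48.6% of all probe sets and 69.0% of the probe sets above the median level, where 27 of the members lie. All 3 ob/ob vehicle arrays lay below all 3 wild-type arrays for 19 members (61.3%), against 17.5% of all probe sets and 29.6% of those above the median level. At an unadjusted p under 0.05, 11 members were lower and 0 were higher, against 10.2% and 9.88% of all probe sets. Of the 11103 probe sets above the median level, 1950 were lower and 852 higher. Leaving out VE array 2, which here alters only the shared estimate of spread, gave 5 members called as lower (Pltp, Npc2, Stard4, Ebp and Hsd17b7), with 13.4% of all probe sets called and 7.18% called as lower. In this bulk tissue, fewer cells of a type and less RNA per cell cannot be told apart.

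In VE brain, against ob/ob vehicle brain, 0 of the 31 members were called by limma, with 4 higher and 0 lower at an unadjusted p under 0.05. Of all probe sets 0.486% were called, nearly all of them lower in VE (0.473%), and at an unadjusted p under 0.05, 3.21% were higher and 10.1% lower. The 4 genes were Stard4, Pmvk, Insig1 and Ebp, a sterol carrier, 2 synthesis enzymes and a regulator. The difference was above zero for 19 of the 31 members, against 41.7% of all probe sets. After quantile normalization it was below zero for 7 of 31, against 12 before. Of all 22206 probe sets, 10492 were below zero after that normalization. Without VE array 2 the difference was above zero for 24 of 31 members, against 48.7% of all probe sets. Pmvk and Stard4 were then called as higher in VE, while 1.81% of all probe sets were called and 0.549% were called as higher.

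In VE brain, against wild-type brain, 0 of the 31 members were called by limma, and 0.0991% of all probe sets were. Without VE array 2 the members called were again 0, with 0.329% of all probe sets called. At an unadjusted p under 0.05, 10 members were lower and 0 were higher, against 9.21% and 2.98% of all probe sets. Of the 11103 probe sets above the median level, 1737 were lower and 122 higher. The difference was below zero for 24 of the 31 members with a median of -0.41, and for 18 with a median of -0.071 after quantile normalization. Of all probe sets 58.8% were below zero, as were 76.8% of those above the median level, whose median was -0.23. After quantile normalization 10941 of all 22206 probe sets were below zero. With VE arrays 1 and 3 alone, 6 members were lower and 0 higher at an unadjusted p under 0.05, against 6.62% and 3.54% of all probe sets. By the F test for any difference among the 3 groups 1 member was called, again Pltp (limma adjusted p = 0.0395), against 1.07% of all probe sets. The VE mean lay between the means of the other groups for 16 members, above both for 5 and below both for 10. With VE array 2 left out these counts were 15, 9 and 7, against 9991, 5992 and 6223 of all 22206 probe sets.

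**Figure D1:**
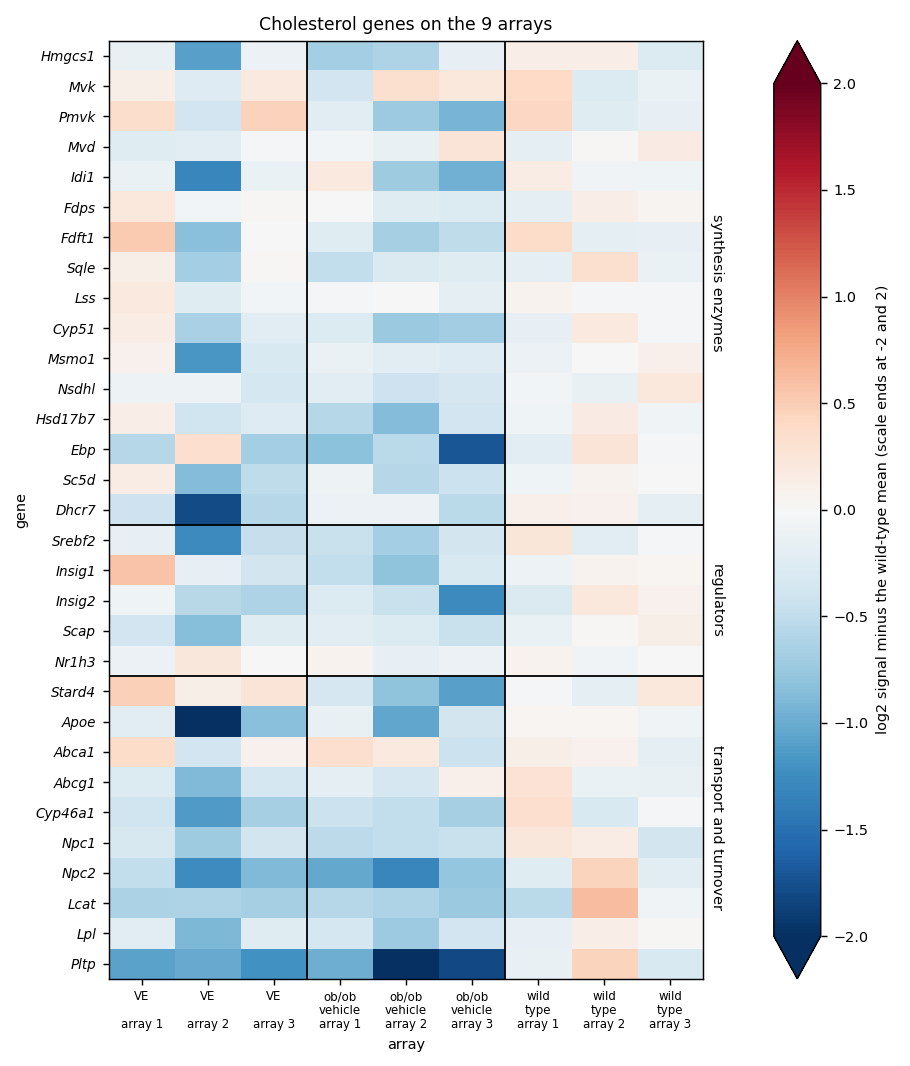
Log2 signal of each of the 31 genes (down the page) on each of the 9 arrays (across: VE, ob/ob vehicle, wild type), shown as the difference from the gene's wild-type mean, with blue for lower and red for higher. The ob/ob vehicle columns are mostly blue, and VE array 2 is the lowest array for 15 genes.

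The synthesis enzymes as a group had a median difference of -0.35 between ob/ob vehicle and wild type, against 0.017 for all probe sets and -0.21 for those above the median level. The difference was below zero for 14 of the 16 enzymes, the ob/ob vehicle arrays lay below all wild-type arrays for 8, and 0 were called by limma (4 lower and 0 higher at an unadjusted p under 0.05). Below zero were 48.6% of all probe sets and 69.0% of those above the median level. Of all probe sets 17.5% lay wholly below the wild type, as did 29.6% of those above the median level. At an unadjusted p under 0.05, 10.2% of all probe sets were lower. Leaving out VE array 2 gave 2 enzymes called, Ebp and Hsd17b7, against 7.18% of all probe sets called as lower. Averaged over the 16 enzymes, the log2 signal was 9.57, 8.94 and 9.39 on VE arrays 1 to 3, 9.28, 9.14 and 9.10 on the ob/ob vehicle arrays, and 9.57, 9.57 and 9.50 on the wild-type arrays. The ob/ob vehicle arrays thus lay below each wild-type array, while VE array 1 stood level with the wild type and VE array 2 below all others. The median difference between VE and ob/ob vehicle was 0.095, with 10 of 16 above zero, against 41.7% of all probe sets. Without VE array 2 the median was 0.33, with 14 of 16 above zero. Of all probe sets 48.7% were then above zero, with a median of -0.01. The marker lists given below then had medians of 0.46 (astrocyte), 0.42 (neuron), 0.395 (oligodendrocyte and myelin) and 0.365 (choroid plexus). Those of endothelium, microglia, and meninges and blood were 0.35, 0.31 and 0.07. After quantile normalization 14 of 16 enzymes were again below zero in ob/ob vehicle, with Mvk in place of Lss, and the median difference from wild type was -0.19.

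Among the early enzymes, which build isoprenoid units from acetyl-CoA, Pmvk gave the widest difference under VE. Pmvk, the kinase that makes mevalonate diphosphate, had log2 signals of 8.65, 7.92 and 8.76 in VE brain, 8.08, 7.57 and 7.37 in ob/ob vehicle brain, and 8.72, 8.05 and 8.13 in wild-type brain. VE arrays 1 and 3 lay above every ob/ob vehicle array, and VE array 2 fell among them. The difference of VE from ob/ob vehicle was 0.77 (SE 0.282, limma adjusted p = 0.251), and it was 1.03 without VE array 2 (limma adjusted p = 0.0478). That of ob/ob vehicle from wild type was -0.63 (limma adjusted p = 0.237), with 1 of the 3 ob/ob vehicle arrays inside the wild-type range.

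Hmgcs1, the synthase of hydroxymethylglutaryl-CoA whose promoter holds the sterol element, had log2 signals of 13.84, 12.90 and 13.88 in VE brain, 13.31, 13.38 and 13.82 in ob/ob vehicle brain, and 14.13, 14.12 and 13.72 in wild-type brain. Its difference of VE from ob/ob vehicle was 0.037 (95% interval -0.56 to 0.63), and 0.36 without VE array 2. Idi1, which isomerizes the isoprenoid unit, averaged 9.07 ± 0.673 in VE brain, 9.10 ± 0.605 in ob/ob vehicle brain and 9.59 ± 0.13 in wild-type brain (SD, n = 3 each), with its lowest value, 8.29, on VE array 2, without which it too differed by 0.36 between VE and ob/ob vehicle. With all arrays the spread inside the VE and ob/ob vehicle groups was larger than the gap between their means for both genes. Fdps, the farnesyl diphosphate synthase, averaged 7.78 in VE brain, 7.54 in ob/ob vehicle brain and 7.72 in wild-type brain, and its VE difference from ob/ob vehicle was 0.24, or 0.30 without VE array 2. Mvk, the mevalonate kinase, and Mvd, the mevalonate diphosphate decarboxylase, were the 2 enzymes not below zero in ob/ob vehicle against wild type, with differences of 0.047 and 0.017, and both turned below zero when each array was centred on its median. Their intervals ran from -0.50 to 0.59 and from -0.42 to 0.45.

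Next come the 3 enzymes that commit the pathway to sterols, and 0 of them passed an unadjusted p under 0.05 by limma in any comparison. Fdft1, the squalene synthase, had log2 signals of 12.39, 11.02 and 11.87 in VE brain, 11.61, 11.20 and 11.35 in ob/ob vehicle brain, and 12.22, 11.66 and 11.70 in wild-type brain. All 3 ob/ob vehicle arrays were below the wild type, and the VE arrays fell on both sides. The VE difference from ob/ob vehicle was 0.37 with all arrays and 0.74 without VE array 2 (limma adjusted p = 0.110). Sqle, the squalene epoxidase that oxygenates squalene, averaged 8.78 in VE brain, 8.62 in ob/ob vehicle brain and 8.96 in wild-type brain, and its VE difference from ob/ob vehicle was 0.16, or 0.41 without VE array 2. Lss, which folds the oxidized squalene into lanosterol, averaged 9.37, 9.33 and 9.41 in VE, ob/ob vehicle and wild-type brain, with an interval of -0.50 to 0.34 for ob/ob vehicle minus wild type. Lss differed by 0.15 between VE and ob/ob vehicle once VE array 2 was left out.

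Past lanosterol come the enzymes that trim methyl groups and move double bonds, and among them Ebp, Hsd17b7 and Cyp51 passed an unadjusted p under 0.05 by limma in ob/ob vehicle against wild type. Cyp51, the lanosterol demethylase, had log2 signals of 12.27, 11.47 and 11.92 in VE brain, 11.85, 11.38 and 11.43 in ob/ob vehicle brain, and 11.96, 12.32 and 12.09 in wild-type brain. The ob/ob vehicle and wild-type arrays did not overlap, with a difference of -0.57 (SE 0.24, limma adjusted p = 0.209), which was -0.28 after quantile normalization. Hsd17b7, a keto reductase of the same demethylation complex, had log2 signals of 8.93, 8.39 and 8.54 in VE brain, 8.23, 7.93 and 8.41 in ob/ob vehicle brain, and 8.70, 8.95 and 8.73 in wild-type brain. Again the ob/ob vehicle arrays were all below the wild type, by 0.60 on average (SE 0.217, limma adjusted p = 0.151). The VE difference from ob/ob vehicle was 0.43 (limma adjusted p = 0.421), and 0.545 without VE array 2.

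Ebp, the sterol isomerase that shifts a double bond in the ring, had log2 signals of 7.37, 8.27 and 7.25 in VE brain, 7.11, 7.40 and 6.23 in ob/ob vehicle brain, and 7.70, 8.19 and 7.91 in wild-type brain. Every ob/ob vehicle array was below every wild-type array, and VE array 2, the lowest array for 15 members, was here the highest of all. The difference of ob/ob vehicle from wild type was -1.02 (SE 0.327, limma adjusted p = 0.12), and that of VE from ob/ob vehicle was 0.72 (limma adjusted p = 0.367). The VE difference was 0.40 without VE array 2. Ebp and Hsd17b7 were both called as lower in ob/ob vehicle than in wild type once VE array 2 was left out, as were 7.18% of all probe sets.

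Dhcr7, the reductase that completes a route to cholesterol, had log2 signals of 7.96, 6.59 and 7.81 in VE brain, 8.26, 8.26 and 7.84 in ob/ob vehicle brain, and 8.48, 8.47 and 8.18 in wild-type brain. Its lowest value was VE array 2, and all 3 VE arrays were below the wild type. The difference of VE from wild type was -0.92 (SE 0.313, limma adjusted p = 0.261), or -0.49 without VE array 2, and that of VE from ob/ob vehicle was -0.67, or -0.23 without VE array 2. Sc5d, the desaturase of the step before it, had a difference of -0.37 between ob/ob vehicle and wild type, which was -0.062 after quantile normalization. Its difference between VE and ob/ob vehicle was -0.04, or 0.19 without VE array 2. Msmo1, the methylsterol oxidase, averaged 7.81 ± 0.645 in VE brain, 8.06 ± 0.0624 in ob/ob vehicle brain and 8.27 ± 0.105 in wild-type brain (SD, n = 3 each), and its VE difference from ob/ob vehicle was -0.25, or 0.105 without VE array 2. Nsdhl, the decarboxylating dehydrogenase of the same complex, averaged 10.29 ± 0.144, 10.14 ± 0.0907 and 10.47 ± 0.187 in VE, ob/ob vehicle and wild-type brain (SD, n = 3 each), with a VE difference from ob/ob vehicle of 0.10 without VE array 2. For Sc5d, Msmo1 and Nsdhl the ob/ob vehicle arrays lay below all wild-type arrays, by 0.21 to 0.37 on average.

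**Figure D2:**
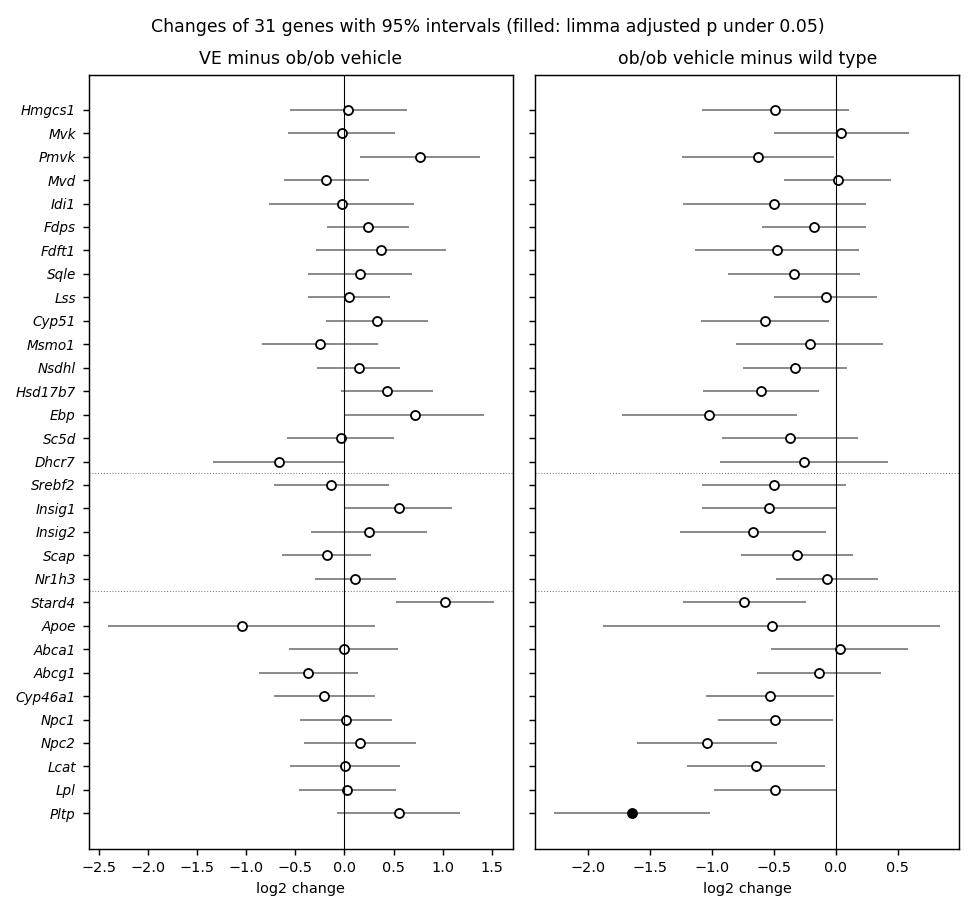
Log2 differences of the 31 genes with 95% intervals from limma, VE minus ob/ob vehicle on the left and ob/ob vehicle minus wild type on the right, with dotted lines between enzymes, regulators, and transport and turnover genes. On the right 28 of the 31 points lie below zero and Pltp is the filled point, while on the left the points fall on both sides of zero and Stard4 lies farthest to the right at 1.02.

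The 5 measured regulators were all below zero in ob/ob vehicle against wild type, with a median of -0.50 and 0 called by limma (1 lower and 0 higher at an unadjusted p under 0.05). Of all probe sets 48.6% were below zero, as were 69.0% of those above the median level, whose median was -0.21. At an unadjusted p under 0.05, 10.2% of all probe sets were lower, as were 1950 of the 11103 above the median level. After quantile normalization all 5 regulators stayed below zero. Their median was then -0.19, against -0.034 for the probe sets above the median level. Srebf2, the gene of SREBP-2, had log2 signals of 14.41, 13.30 and 14.12 in VE brain, 14.13, 13.89 and 14.21 in ob/ob vehicle brain, and 14.82, 14.37 and 14.53 in wild-type brain. Its ob/ob vehicle arrays were all below the wild type, with a difference of -0.50 (SE 0.27, limma adjusted p = 0.321), which was -0.14 after quantile normalization. VE and ob/ob vehicle differed by -0.13, or by 0.19 without VE array 2. Scap, the sterol sensor that escorts SREBP-2, likewise had all ob/ob vehicle arrays below the wild type, with a difference of -0.31 (limma adjusted p = 0.422).

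Insig1, which retains SCAP in the endoplasmic reticulum and is itself a target of SREBP-2, had log2 signals of 10.94, 10.21 and 10.00 in VE brain, 9.87, 9.56 and 10.06 in ob/ob vehicle brain, and 10.26, 10.43 and 10.41 in wild-type brain. The ob/ob vehicle arrays were below every wild-type array, and 2 of the 3 VE arrays were above every ob/ob vehicle array. The difference of VE from ob/ob vehicle was 0.55 (SE 0.252, limma adjusted p = 0.365), or 0.64 without VE array 2, and that of ob/ob vehicle from wild type was -0.54 (limma adjusted p = 0.254). Its partner Insig2 had differences of 0.25 between VE and ob/ob vehicle (0.32 without VE array 2) and of -0.67 between ob/ob vehicle and wild type (limma adjusted p = 0.199), with ob/ob vehicle array 3 at 6.25 far below the other values. Nr1h3, a liver X receptor, averaged 6.91, 6.80 and 6.87 in VE, ob/ob vehicle and wild-type brain, and the intervals of its differences reached from -0.48 to 0.52.

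Transport and turnover genes had a median difference of -0.525 between ob/ob vehicle and wild type, with 9 of 10 below zero and 8 of 10 with all ob/ob vehicle arrays below all wild-type arrays, against 17.5% of all probe sets and 29.6% of those above the median level. Below zero were 48.6% of all probe sets and 69.0% of those above the median level. After quantile normalization the median of the transport and turnover genes was -0.49. The call was for Pltp, and 6 were lower and 0 higher at an unadjusted p under 0.05, against 10.2% and 9.88% of all probe sets. Leaving out VE array 2 gave 3 called, Pltp, Npc2 and Stard4, against 7.18% of all probe sets called as lower. Against wild type, the VE arrays had a median of -0.57, with all VE arrays below all wild-type arrays for 7 of 10 (11.5% of all probe sets), and against ob/ob vehicle the VE median was 0.012. From VE arrays 1 and 3 alone these medians were -0.44 and 0.165, again with 7 of 10 below all wild-type arrays. On the same arrays, 3239 of all 22206 probe sets lay below all wild-type arrays.

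Pltp had log2 signals of 7.99, 8.05 and 7.84 in VE brain, 8.07, 6.91 and 7.25 in ob/ob vehicle brain, and 8.91, 9.50 and 8.75 in wild-type brain. Both ob/ob groups lay wholly below the wild type, and ob/ob vehicle array 1 sat with the VE arrays. The ob/ob vehicle difference from wild type was -1.64 (SE 0.291, 95% interval -2.27 to -1.02, limma adjusted p = 0.0326). The difference of VE from wild type was -1.09 (SE 0.291, limma adjusted p = 0.166), and that of VE from ob/ob vehicle was 0.55 (limma adjusted p = 0.449). These were -1.14 and 0.505 without VE array 2. The call ended when ob/ob vehicle array 2 or 3 or any wild-type array was left out, with limma adjusted p of 0.103 to 0.186, while the difference stayed between -1.795 and -1.39 in those fits.

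Npc2, the small protein that takes cholesterol from the lumen of the lysosome, had log2 signals of 6.58, 5.81 and 6.18 in VE brain, 6.04, 5.77 and 6.29 in ob/ob vehicle brain, and 6.83, 7.52 and 6.86 in wild-type brain. Every array of both ob/ob groups was below every wild-type array. The ob/ob vehicle difference from wild type was -1.04 (SE 0.262, limma adjusted p = 0.0677), and it was -1.14 with a call after quantile normalization (limma adjusted p = 0.0308). VE and ob/ob vehicle differed by 0.16 (95% interval -0.41 to 0.72), or by 0.35 without VE array 2. Npc1, the membrane protein that receives that cholesterol, had a difference of -0.49 between ob/ob vehicle and wild type (SE 0.216, limma adjusted p = 0.23), with its 3 ob/ob vehicle values between 7.70 and 7.78.

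Stard4, a soluble carrier of sterols and a target of SREBP-2, had log2 signals of 9.50, 9.15 and 9.29 in VE brain, 8.70, 8.23 and 7.95 in ob/ob vehicle brain, and 9.01, 8.84 and 9.24 in wild-type brain. It was the only member whose VE arrays all lay above all ob/ob vehicle arrays (4.62% of all probe sets did so), and its ob/ob vehicle arrays also lay below the wild type. The difference of VE from ob/ob vehicle was 1.02 (2.03-fold, SE 0.23, 95% interval 0.52 to 1.52, limma adjusted p = 0.0685), at rank 219 of 22206 probe sets by p. It was called after quantile normalization (1.12, limma adjusted p = 0.0201) and without VE array 2 (1.10, limma adjusted p = 0.0275). The adjusted p reached 0.301 when ob/ob vehicle array 3, the lowest, was left out, with a difference of 0.85. Between ob/ob vehicle and wild type the difference was -0.74 (SE 0.23, limma adjusted p = 0.11), and between VE and wild type it was 0.28 (95% interval -0.21 to 0.78).

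**Figure D3:**
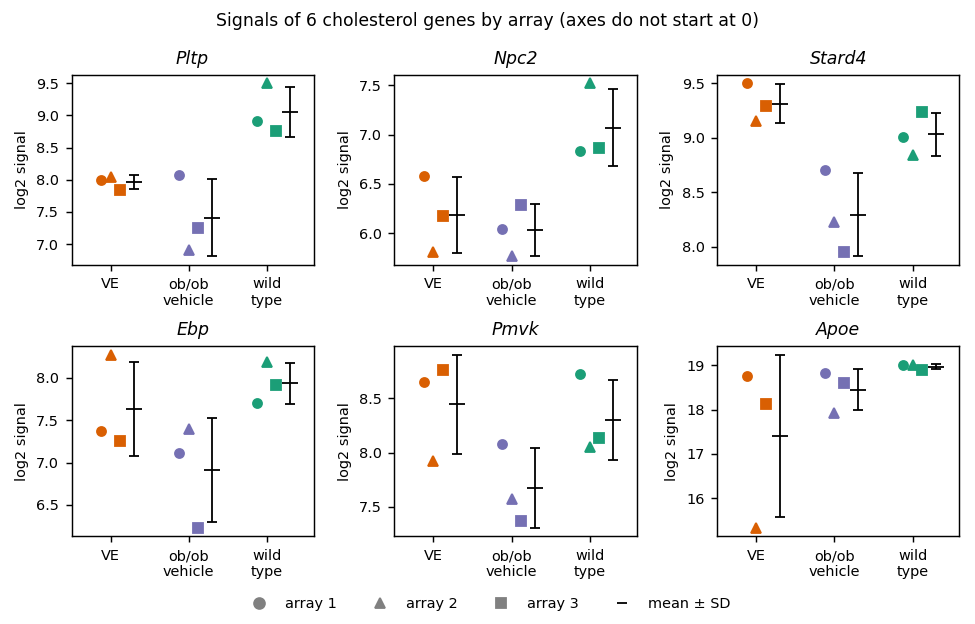
Log2 signals of 6 genes on the 9 arrays by group (VE, ob/ob vehicle, wild type), with the mean and SD beside each group and a marker shape for each array number. Pltp and Npc2 of both ob/ob groups lie below the wild type, Stard4 of the VE group lies above ob/ob vehicle, and the VE spread of Apoe comes from array 2 at 15.33.

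The apolipoprotein gene Apoe shows how far VE array 2 could shift a mean. Its log2 signals were 18.77, 15.33 and 18.13 in VE brain, 18.83, 17.93 and 18.61 in ob/ob vehicle brain, and 19.01, 19.01 and 18.90 in wild-type brain. The VE difference from ob/ob vehicle was -1.05 with all arrays (SE 0.63, limma adjusted p = 0.513) and -0.0067 without VE array 2. The wild-type values lay within about a unit of 19.93, the highest signal on the arrays. Abca1, the pump that loads lipid onto apolipoprotein E, averaged 9.003, 9.01 and 8.98 in VE, ob/ob vehicle and wild-type brain, and was the only transport and turnover gene not below zero in ob/ob vehicle (0.033, 95% interval -0.52 to 0.59, and -0.040 with each array centred on its median). Its VE difference from ob/ob vehicle was 0.19 without VE array 2. Abcg1, a second sterol pump, had a VE difference from wild type of -0.50 (limma adjusted p = 0.409), or -0.31 without VE array 2, with all VE arrays below the wild type.

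Cyp46a1, the cholesterol hydroxylase of neurons, had log2 signals of 10.09, 9.35 and 9.82 in VE brain, 10.06, 9.99 and 9.82 in ob/ob vehicle brain, and 10.82, 10.19 and 10.46 in wild-type brain. Both ob/ob groups lay below the wild type. The difference was -0.74 for VE minus wild type (limma adjusted p = 0.248, and -0.535 without VE array 2) and -0.53 for ob/ob vehicle minus wild type (limma adjusted p = 0.234). Lcat, which esterifies cholesterol on lipoproteins, varied little in the ob/ob groups, at 8.29 ± 0.0265 in VE brain and 8.28 ± 0.0833 in ob/ob vehicle brain, against 8.93 ± 0.583 in wild-type brain (SD, n = 3 each). The wild-type values were 8.38, 9.54 and 8.86, so that wild-type array 1 stood close to both ob/ob groups. Lpl, the lipase of triglyceride-rich particles, averaged 6.70, 6.67 and 7.16 in VE, ob/ob vehicle and wild-type brain, with no overlap between either ob/ob group and the wild type, and differed by 0.25 between VE and ob/ob vehicle without VE array 2.

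**Figure D4:**
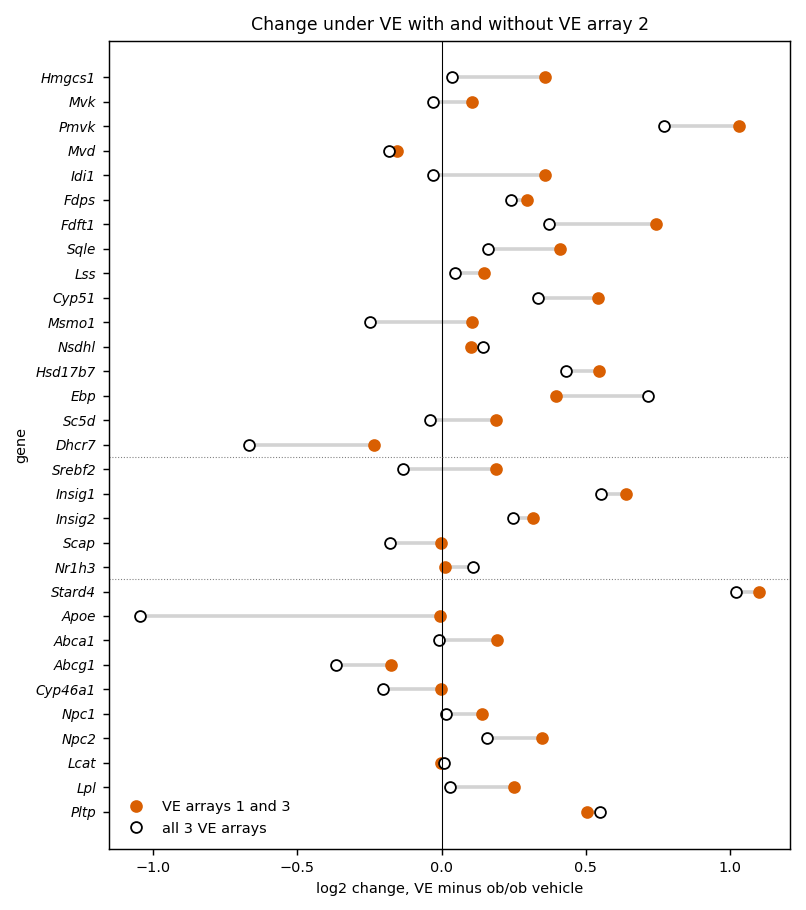
Log2 difference of VE minus ob/ob vehicle for each of the 31 genes, with VE arrays 1 and 3 alone (filled) and with all 3 VE arrays (open). Without VE array 2 the points lie above zero for 24 of 31 genes, against 19 with it, and Apoe moves the most.

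Of 40 further genes of the pathway (receptors, esterases, carriers and other oxidases), 31 were measured and 0 were called by limma in any of the 3 comparisons. At an unadjusted p under 0.05, 5 were lower and 0 higher in ob/ob vehicle than in wild type, against 10.2% and 9.88% of all probe sets. In VE against wild type 12 were lower and 1 higher, against 9.21% and 2.98% of all probe sets, and from VE arrays 1 and 3 alone 3 were lower and 0 higher, against 6.62% and 3.54%. Between VE and ob/ob vehicle 0 were past it, while VE arrays 1 and 3 alone gave 6 higher and 0 lower, against 8.6% and 10.1% of all probe sets. Leaving out VE array 2 gave 5 genes called as lower in ob/ob vehicle than in wild type (Abca2, Cyp7b1, Clu, Nceh1 and Mylip), against the 7.18% of all probe sets given above, and quantile normalization of the 9 arrays gave 1, Abca2 (limma adjusted p = 0.0439). In ob/ob vehicle 26 of the 31 were below zero against wild type. So were 48.6% of all probe sets and 69.0% of those above the median level. The median of the 31 in this comparison was -0.33, against -0.21 for the probe sets above the median level. The smallest p values there belonged to Cyp7b1, an oxysterol hydroxylase (-0.82, limma adjusted p = 0.0608), Abca2, a transporter of myelinating cells (-0.86, limma adjusted p = 0.0678), and Nceh1, a cholesteryl ester hydrolase (-0.67, limma adjusted p = 0.107). Over 20 alternatives each, a call was gained in 9 for Cyp7b1, in 8 for Abca2 and in 4 for Nceh1, and the difference of Nceh1 was -0.29 after quantile normalization. These counts include calls under looser cutoffs, an adjusted p under 0.1 or an unadjusted p under 0.05 with a fold over 1.1. For VE against ob/ob vehicle they belonged to Mylip, a ligase that degrades lipoprotein receptors (0.40), the sterol pump Abcg4 (-0.40) and the lipoprotein receptor Vldlr (0.44), with limma adjusted p of 0.416 to 0.438, and were 0.475, -0.30 and 0.65 without VE array 2. Of the 3, Vldlr gained a call in 1 of 20 alternatives. For VE against wild type they belonged to Cyp7b1 (-0.67), the apolipoprotein gene Clu (-1.61) and the receptor chaperone Lrpap1 (-0.63), with limma adjusted p of 0.209 to 0.289, and were -0.72, -0.85 and -0.47 without VE array 2. Over 20 alternatives they ran from -0.73 to -0.45 for Cyp7b1, from -2.05 to -0.40 for Clu and from -0.82 to -0.27 for Lrpap1. Each gained a call in 2 of the 20, the unadjusted cutoff among them.

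Markers of the cell types that make and use brain cholesterol were lower together with the members. In ob/ob vehicle against wild type, 2 of 15 oligodendrocyte and myelin markers were called as lower (Cldn11 and Fa2h, median of the list -0.99), as were 3 of 13 astrocyte markers (Gfap, Aqp4 and Sox9, median -0.68), 4 of 13 choroid plexus markers (Folr1, Kl, Ecrg4 and Ace, median -0.85) and 2 of 13 microglia markers (C1qb and Olfml3, median -0.61). Of all probe sets 0.73% were called as lower. After quantile normalization 2, 1, 4 and 5 markers of these lists were called, against 2.84% of all probe sets. The medians were then -0.75, -0.46, -0.94 and -0.565. Over the alternatives each named gene lost its call in 4 to 9, with 9 of 20 for Cldn11 and for Aqp4. The mean log2 signal of the oligodendrocyte list was 9.84 to 10.72 in VE brain, 10.01 to 10.53 in ob/ob vehicle brain and 10.84 to 11.67 in wild-type brain. That of the astrocyte list was 10.99 to 11.84 in VE brain, 11.18 to 11.61 in ob/ob vehicle brain and 12.04 to 12.12 in wild-type brain. Neither list overlapped between the wild type and either ob/ob group. For the choroid plexus list the ranges were 7.95 to 8.33 in VE brain, 7.26 to 8.24 in ob/ob vehicle brain and 8.44 to 9.40 in wild-type brain, and for microglia 7.19 to 7.55, 7.07 to 7.28 and 7.71 to 7.97. Of the neuron, endothelial, and meninges and blood lists, 0 of 13, 0 of 9 and 1 of 7 (Igf2) were called as lower, with medians of -0.60, -0.37 and -0.027. Ob/ob vehicle arrays lay below all wild-type arrays for 11 of 13 neuron, 2 of 9 endothelial and 2 of 7 meninges and blood markers. The same held for 12 of 15 oligodendrocyte and myelin, 10 of 13 astrocyte, 5 of 13 choroid plexus and 8 of 13 microglia markers. Of all probe sets 17.5% did so, as did 29.6% of those above the median level. After quantile normalization the neuron, endothelial, and meninges and blood lists had 1, 0 and 1 called, with medians of -0.25, -0.30 and 0.013. The smallest p of the neuron list belonged to Nefm (-1.03) and Gad1 (-0.84), and of the endothelial list to Kdr (-0.61) and Cldn5 (-0.43), with limma adjusted p of 0.0592 to 0.252. In VE against ob/ob vehicle 0 markers of these lists were called by limma, and between 1 and 4 of a list were higher and 0 or 1 lower at an unadjusted p under 0.05. Of all probe sets 3.21% were higher and 10.1% lower at that cutoff. Quantile normalization gave 4 called as higher in VE (Olfml3, Gad2, Slc17a6 and Cldn5), against 1.46% of all probe sets called in either direction. Leaving out VE array 2 also gave 4, of microglia (Olfml3) and neurons (Gad2, Slc32a1 and Slc17a6), against 0.549% of all probe sets called as higher. Against wild type, leaving out VE array 2 gave 13 oligodendrocyte, 7 astrocyte, 5 choroid plexus, 7 microglia, 5 neuron and 1 meninges and blood markers called as lower in ob/ob vehicle, and Fa2h, Gfap and Sox9 called as lower in VE. Of all probe sets 7.18% were then called as lower in ob/ob vehicle and 0.293% as lower in VE. On VE arrays 1 and 3 alone the list means were 10.64 to 10.72 for oligodendrocytes, 11.65 to 11.84 for astrocytes, 8.23 to 8.33 for choroid plexus and 7.43 to 7.55 for microglia. The part of these cell types in the differences of the cholesterol genes was not tested.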

How the data were processed

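RNA from mouse brain (100 ng per array, extracted with ISOGEN per the labels) was hybridized to Clariom S mouse arrays for 16 h at 45 °C. The deposited values are log2 signals of 22206 probe sets, which the authors made with Transcriptome Analysis Console 4.0.2 by the SST-RMA algorithm, a robust multi-chip average, per the design text. The authors' cutoffs for detection (0.05) and area under the curve (0.7) were not used here, since they need values other than signals. Symbols came from the platform annotation, in which 19572 probe sets have 1 symbol and 2634 have none. A gene would be read from its brightest probe set, but each member had 1.

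Groups came from the sample titles. A mean per group was fitted to the 9 arrays with limma 3.58.1 in R 4.3.3, variances were moderated by empirical Bayes (6 residual degrees of freedom, 7.03 prior), and p was adjusted by Benjamini-Hochberg over 22206 probe sets. Precision is set by 3 arrays per group; the design text counts 3 mice per group, and the labels do not name the animal behind an array or say whether animals were pooled, so p-values measure the spread between arrays. The comparisons of VE with ob/ob vehicle and of ob/ob vehicle with wild type share the ob/ob vehicle arrays. The script was tested on simulated data.

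Members and lists were chosen with earlier results of these data known. All measured members are named. Of the further pathway genes, called genes are named or else the 3 with the smallest p in a comparison, and of each marker list the called genes or else the 2 with the smallest p between ob/ob vehicle and wild type. Medians of a list are over its measured genes, with no test. Alternatives were an adjusted p under 0.1, the authors' rule, quantile normalization, centring, array weights, an intensity trend, probe sets above the median level or with 1 symbol, the 2 compared groups alone, the replicate number as a block and leaving out each array. Quantile normalization without VE array 2 was added after seeing the data. Promoter windows are those of RefSeq on GRCm38.p6, and motifs were searched over their full 250 bases.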

Additional observations from a re-analysis of the deposited data

How the results depend on the processing

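Of 1848 recomputed differences of single members, 105 changed sign and 0 of those were called, 61 gained a call and 5 lost one, all 5 of them for Pltp against wild type without a single ob/ob vehicle or wild-type array. Each alternative was judged here by its own cutoff. The 61 therefore include calls at an adjusted p under 0.1 and by the authors' rule, which leave the differences as they were. Members called numbered 0 for VE against ob/ob vehicle, 1 for ob/ob vehicle against wild type, 0 for VE against wild type and 1 by the F test. In the same order they numbered 1, 2, 0 and 3 at an adjusted p under 0.1, 4, 11, 10 and 9 by the authors' rule (unadjusted p under 0.05 and a fold over 1.1), 1, 2, 0 and 2 after quantile normalization, 2, 8, 8 and 11 with array weights (0.145 for VE array 2 and 6.70 for VE array 3), and 2, 4, 0 and 4 after quantile normalization of the 8 arrays other than VE array 2, an alternative chosen after seeing the data. Of all probe sets, 13.3%, 20.1%, 12.2% and 19% had an unadjusted p under 0.05 by limma, in the same order. After quantile normalization 1.46%, 2.84% and 0% of all probe sets were called in the 3 comparisons. Shares of all probe sets with array weights are not given here, so those counts were not set against the whole array. Centring the arrays gave 2 for ob/ob vehicle against wild type and 2 by the F test, an intensity trend gave 1 for VE against ob/ob vehicle, and the 2 compared groups alone gave 4 for ob/ob vehicle against wild type. With each array left out in turn the counts were 0 to 2, 0 to 5, 0 to 0 and 0 to 5, with the highest without VE array 2. In that fit 1.81%, 13.4% and 0.329% of all probe sets were called in the 3 comparisons. Shares are not given here for the adjusted p under 0.1, quantile normalization of 8 arrays, centring, the trend or the compared groups alone. Nor are they given for leaving out other arrays, so these counts too were not set against the whole array. Among probe sets above the median level alone, the 4 members below that level (Npc2 among them) had no value. No member had several probe sets, so averaging probe sets gave no separate value.

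Quantile normalization moved the median difference from wild type to -0.19 for the enzymes and -0.19 for the regulators in ob/ob vehicle, and to -0.10 for the regulators in VE. Without VE array 2 in that normalization these were -0.19, -0.19 and -0.16, and transport and turnover genes in VE had -0.29. Leaving out single arrays gave medians for VE against ob/ob vehicle of -0.028 to 0.33 for enzymes, -0.055 to 0.19 for regulators and -0.070 to 0.165 for transport and turnover genes, with each highest value without VE array 2. For ob/ob vehicle against wild type they were -0.385 to -0.33, -0.52 to -0.365 and -0.63 to -0.46, and for VE against wild type -0.33 to -0.082, -0.545 to -0.31 and -0.66 to -0.44. Centring raised every difference of VE from ob/ob vehicle by 0.12. The cause of these moves was not tested.

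Arrays of the 3 groups share the numbers 1 to 3. Deviations from the group means correlated at -0.032 to 0.33 between arrays of the same number and at -0.29 to 0.11 between others, and 5 of 9 arrays were closest to their own number, so the numbers were not taken to pair the arrays. With the replicate number as a block, members called numbered 0, 1, 0 and 1, and calls over all probe sets numbered 144, 251, 2 and 200, against 108, 281, 22 and 238 without it.

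The sign turned after quantile normalization for VE against ob/ob vehicle in Mvk (0.076), Idi1 (0.013), Sc5d (0.073), Srebf2 (0.037) and Abca1 (0.052), for ob/ob vehicle against wild type in Mvk (-0.12) and Lss (0.093), for VE against wild type in Hmgcs1 (0.030), Mvk (-0.049), Fdft1 (0.21), Lss (0.19), Cyp51 (0.096), Nsdhl (0.069), Hsd17b7 (0.0085) and Sc5d (0.011). The sign turned after centring for VE against ob/ob vehicle in Mvk (0.093), Idi1 (0.093), Sc5d (0.083) and Abca1 (0.11), for ob/ob vehicle against wild type in Mvk (-0.027), Mvd (-0.057) and Abca1 (-0.040), for VE against wild type in Lss (0.017). The sign turned with array weights for VE against ob/ob vehicle in Mvk (0.088), Idi1 (0.42), Srebf2 (0.046), Scap (0.064), Abca1 (0.13) and Lcat (-0.0073), for ob/ob vehicle against wild type in Abca1 (-0.0023), for VE against wild type in Fdft1 (0.083), Sqle (0.0018) and Insig1 (-0.30). The sign turned after quantile normalization of the 8 arrays other than VE array 2 for VE against ob/ob vehicle in Mvk (0.24), Idi1 (0.29), Msmo1 (0.087), Nsdhl (-0.043), Abca1 (0.12) and Lcat (-0.030), for ob/ob vehicle against wild type in Mvk (-0.13) and Lss (0.094), for VE against wild type in Hmgcs1 (0.016), Fdft1 (0.35), Sqle (0.13), Lss (0.13), Cyp51 (0.060), Hsd17b7 (0.0048) and Nr1h3 (-0.063). With 1 array left out, the difference of VE against ob/ob vehicle crossed zero in Hmgcs1 (-0.13 to 0.36), Mvk (-0.25 to 0.11), Idi1 (-0.26 to 0.36), Lss (-0.067 to 0.15), Msmo1 (-0.53 to 0.10), Sc5d (-0.32 to 0.19), Srebf2 (-0.37 to 0.19), Insig2 (-0.055 to 0.44), Abca1 (-0.24 to 0.19), Npc1 (-0.057 to 0.14), Npc2 (-0.038 to 0.35), Lcat (-0.040 to 0.040) and Lpl (-0.092 to 0.25). With 1 array left out, the difference of ob/ob vehicle against wild type crossed zero in Mvk (-0.087 to 0.26), Mvd (-0.10 to 0.098), Abca1 (-0.12 to 0.27) and Abcg1 (-0.26 to 0.0050). With 1 array left out, the difference of VE against wild type crossed zero in Mvk (-0.12 to 0.21), Pmvk (-0.015 to 0.41), Fdps (-0.032 to 0.13), Fdft1 (-0.41 to 0.27), Sqle (-0.33 to 0.073), Lss (-0.15 to 0.068), Insig1 (-0.26 to 0.21), Nr1h3 (-0.057 to 0.12) and Abca1 (-0.14 to 0.23).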
